A study of Mus musculus with 19 samples.

Results

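The genes described here encode the nuclear part of respiratory complex I, the NADH:ubiquinone oxidoreductase of the mitochondrial inner membrane, and the factors that assemble it. They were chosen by name, as the genes whose symbol starts with Nduf, without symbols that end in -ps, and with 1 CPM or more on average, CPM being the counts of a gene scaled to the total of its library. Of 39017 genes in the count table, 50 had such a symbol, 1 was left out as Ndufab1-ps, 2 (Ndufa4l2 and Ndufa11b) fell under 1 CPM, and 47 remained. The RNA came from E0771 cells. This mouse mammary carcinoma line carried the red fluorescent protein mCherry, and the cells were placed in the mammary fat pad of C57BL/6 mice (50000 cells per tumor) and later sorted from the dissociated tumors by their mCherry signal.

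The hosts were lean or obese, which the sample names pair with chow and HFD, and the tumors were taken at midpoint (day 14) or endpoint (day 21). The 18 libraries compared were 4 from lean and 5 from obese hosts at midpoint, and 4 from lean (replicates 1, 2, 3 and 5) and 5 from obese hosts at endpoint. All groups carried the same tumor line and the same host strain, and no source used here gives the age or sex of the mice or the length of the diets. Each library was 1 tumor, so the p-values below measure the spread between tumors. Lean endpoint replicate 4 was left out, because its counts stop on chromosome 5 and only 14 of the 47 genes have a count in it.

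Complex I takes electrons from NADH, passes them along iron-sulfur clusters to ubiquinone, and pumps protons across the inner membrane with the energy released. Its N module oxidises NADH, its Q module reduces ubiquinone, and the proximal and distal parts of the membrane arm hold the proton pumps, whose core proteins are encoded by the mitochondrial genome. The nuclear genome encodes the other core subunits, many accessory subunits and the assembly factors, which bind intermediates and are absent from the finished enzyme. In tumor cells the complex supports regeneration of NAD+ and synthesis of aspartate, as well as respiration.

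By role, the 47 genes comprised 10 of the N module, 6 of the Q module, 9 of the proximal and 10 of the distal membrane arm, the acyl carrier protein gene Ndufab1, 8 assembly factors (Ndufaf1 to Ndufaf8) and 3 that carry only the prefix. Those 3 were Ndufa4, whose product is known as a subunit of complex IV, and Ndufb4c and Ndufs6b, which the GENCODE annotation calls processed pseudogenes. Reads of these pseudogenes and of their parent genes Ndufb4 and Ndufs6 may have been split by the counting. Exons of Ndufb11, Ndufb2, Ndufs3, Ndufb5, Ndufb6, Ndufa2, Ndufs1 and Ndufa13 overlap a gene on the other strand, and the strand setting of the counting is not given, so their values are uncertain to that extent. The overlapping partner was well expressed for Ndufb11, with Rbm10 at 52.2 CPM, and for Ndufb2, with Braf at 43.3 CPM. Ndufb2, at a mean of 16.4 CPM, also overlaps Adck2 (14.8 CPM) on its own strand by 145 bases, so its values are uncertain whatever the strand setting.

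The 18 libraries held 44174080 to 56996252 counts. The 47 genes took 0.23% to 0.362% of the counts at midpoint and 0.108% to 0.207% at endpoint, while transcripts of the mitochondrial genome took 5.8% to 12.3% at midpoint and 17.1% to 44.7% at endpoint, the highest in lean endpoint replicate 1. The labelled cell type was checked against its markers. Krt8 was between 17.5 and 64.8 CPM, whereas Krt18, Krt7, Krt19, Epcam and Cdh1, other defining markers of epithelial cells, were at or near 0 in all 18 libraries. Pdgfra, a marker of fibroblasts, was at 67.9 to 486 CPM, above Krt8 in every library. The other fibroblast markers lay below Pdgfra in every library. Col1a1 was at 0.504 to 16.9 CPM, Col1a2 at 0.303 to 8.19 CPM and Postn at 0.6 to 4.23 CPM. Lum was at 0 to 17.5 CPM and Dcn at 0.232 to 49.6 CPM. Macrophage and pan-leukocyte markers were also present in every library, and the summed levels of these lists stand beside the comparisons. In bulk samples, fewer cells of a type and less RNA per cell cannot be told apart.

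Per kilobase of exon, Ndufb9 of the distal arm had the highest mean level over the 18 libraries, at 213 CPM per kb. Ndufa8, a proximal arm subunit that faces the intermembrane space, followed at 144 CPM per kb, then Ndufa4 at 112 CPM per kb. The assembly factors lay lower, from 3.47 (Ndufaf8) to 21.7 CPM per kb (Ndufaf2). Ndufab1 was the lowest of the 47 at 1.25 CPM per kb, over a merged exon length of 6883 bases. Below the minimum, Ndufa4l2, a paralog of Ndufa4, was at 0.563 CPM per kb. In CPM scaled by the TMM method, the scale used from here on, Ndufa4l2 was at 0.437, 0.324, 0.398 and 0.604 in the lean midpoint tumors, at 0.564, 0.741, 1.34, 0.968 and 0.704 in the obese midpoint tumors, at 0.473, 0.413, 0.202 and 0.215 in the lean endpoint tumors, and at 0.589, 0.332, 0.664, 0.495 and 0.258 in the obese endpoint tumors. It was low in every group, with the highest value in obese midpoint replicate 3.

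The mean log2 CPM of the 47 genes was highest in obese midpoint tumors, at 5.23 ± 0.22 (SD, n = 5), followed by lean midpoint tumors at 4.86 ± 0.19 (SD, n = 4), lean endpoint tumors at 4.53 ± 0.11 (SD, n = 4) and obese endpoint tumors at 4.44 ± 0.14 (SD, n = 5). The midpoint groups overlapped, with 4.67 to 5.12 in lean and 4.97 to 5.48 in obese tumors. The endpoint groups overlapped too, with 4.40 to 4.65 in lean and 4.21 to 4.59 in obese tumors. The lowest lean midpoint tumor lay above the highest lean endpoint tumor by less than the pooled SD within groups of 0.174. Summed over the 47 genes, the level was 2007 to 2717 CPM in lean and 2608 to 4201 CPM in obese tumors at midpoint, and 1592 to 1943 CPM in lean and 1367 to 1795 CPM in obese tumors at endpoint.

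**Figure D1:**
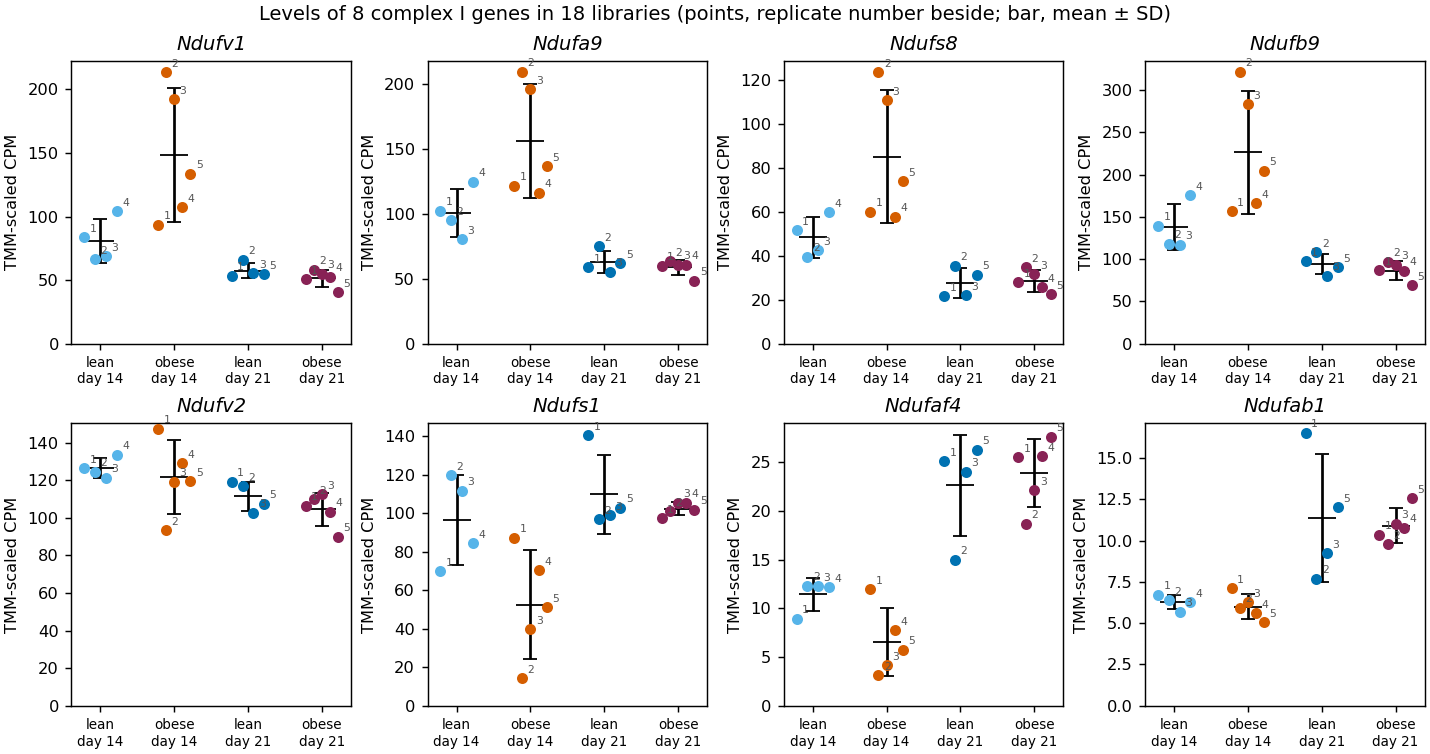
TMM-scaled CPM of 8 of the genes in the 18 libraries, by host and day, with points for tumors, replicate numbers beside them and bars for the mean ± SD. Ndufv1, Ndufa9, Ndufs8 and Ndufb9 are highest in obese replicates 2 and 3 at day 14, the same tumors in which Ndufs1 and Ndufaf4 are lowest, and Ndufv2 stays between 89.9 and 148 CPM in all groups.

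The start regions of 4 of the genes are shown because 3 of them (Ndufa8, Ndufa9 and Ndufs8) were lower and 1 (Ndufaf4) was higher at endpoint than at midpoint in obese hosts, and because each holds a match to a motif of a factor known for genes of the respiratory chain. The sequences are from RefSeq on GRCm38.p6, run from 250 bases before to 50 bases after the transcription start, and are written 5′ to 3′ on the strand of the gene. Capitals mark matches, on either strand, to the 10-base motif of nuclear respiratory factor 1 (NRF1), CCGGAAG (ETS family, which includes the nuclear respiratory factor 2 subunit Gabpa) or AAGATGGCG (YY1).
Ndufa8 (chr2:36049289-36049588, minus strand): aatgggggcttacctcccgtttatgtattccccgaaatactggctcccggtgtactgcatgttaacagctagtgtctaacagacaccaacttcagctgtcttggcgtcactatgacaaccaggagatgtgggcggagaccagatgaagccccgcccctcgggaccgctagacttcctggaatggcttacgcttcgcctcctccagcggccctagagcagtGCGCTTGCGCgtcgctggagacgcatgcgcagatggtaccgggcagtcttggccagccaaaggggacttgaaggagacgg
Ndufa9 (chr6:126849095-126849394, minus strand): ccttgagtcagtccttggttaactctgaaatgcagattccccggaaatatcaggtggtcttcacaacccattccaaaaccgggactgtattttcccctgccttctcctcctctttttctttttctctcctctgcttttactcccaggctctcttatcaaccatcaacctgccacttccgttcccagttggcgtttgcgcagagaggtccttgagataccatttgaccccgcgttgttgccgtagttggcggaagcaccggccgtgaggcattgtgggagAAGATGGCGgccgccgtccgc
Ndufs8 (chr19:3912725-3913024, minus strand): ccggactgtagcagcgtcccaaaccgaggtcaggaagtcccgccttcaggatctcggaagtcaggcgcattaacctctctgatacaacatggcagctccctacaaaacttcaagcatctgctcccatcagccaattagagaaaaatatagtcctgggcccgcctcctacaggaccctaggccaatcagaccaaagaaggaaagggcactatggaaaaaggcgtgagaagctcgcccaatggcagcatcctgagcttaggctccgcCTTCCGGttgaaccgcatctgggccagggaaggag
Ndufaf4 (chr4:24897833-24898132, plus strand): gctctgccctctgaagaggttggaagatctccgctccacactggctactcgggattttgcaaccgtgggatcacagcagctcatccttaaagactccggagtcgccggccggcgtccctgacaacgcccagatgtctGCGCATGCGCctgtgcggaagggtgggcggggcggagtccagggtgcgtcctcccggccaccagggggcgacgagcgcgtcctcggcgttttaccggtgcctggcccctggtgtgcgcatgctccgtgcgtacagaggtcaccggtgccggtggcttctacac
The capitals mark NRF1 matches in Ndufa8 and Ndufaf4, a YY1 match in Ndufa9 and an ETS match, read on the opposite strand, in Ndufs8. Such windows were found for 40 of the 47 genes, with Ndufs1 and 6 others not matched. The NRF1 motif was present in 9 of the 40 (22.5%), against 11% of 10198 protein-coding genes tested here and 5.19% of 27025 genes of the promoter table. The YY1 motif was present in 6 (15%), against 3.44% and 1.64%, and the ETS motif in 6 (15%), against 19.6% and 9.93%. The 9-base motif TCAAGGTCA of estrogen-related receptor alpha was present in 0 of the 40, against 0.353% and 0.466%. Between the days in obese hosts, the NRF1 motif was in 7 of 34 genes that were lower and in 1 of 4 that were higher, the YY1 motif in 6 and 0, and the ETS motif in 5 and 1. A match is a description of the sequence and not a bound site.

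Obese and lean hosts were first compared at midpoint. Subunit genes of all 4 modules rose in tumors of obese hosts, whereas Ndufs1, the N-module subunit that carries several iron-sulfur clusters, and the assembly factor Ndufaf4 fell. In edgeR's quasi-likelihood fit, 25 of the 47 genes were higher in obese hosts, 2 were lower and 20 did not pass a threshold of 0.05 on p-values adjusted by the Benjamini-Hochberg method. The background share of all 16352 genes tested was 29.5% (16.7% higher and 12.8% lower). The median log2 fold change was 0.57 over the 47 genes and -0.001 over all genes tested.

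Within the N module, Ndufv1, the flavin-bearing subunit that binds NADH, was at 83.5, 66.5, 68.7 and 104 CPM in lean replicates 1 to 4 and at 93.5, 214, 192, 107 and 134 CPM in obese replicates 1 to 5. Obese replicates 2 and 3 stood far above all others, and obese replicate 1 lay below lean replicate 4, so the groups overlapped. The log2 fold change was 0.88 ± 0.22 (SE, 4 lean and 5 obese tumors; edgeR adjusted p = 0.0304). Ndufs1 was at 69.8, 120, 112 and 84.3 CPM in lean and at 87.3, 14.2, 39.8, 70.3 and 51.0 CPM in obese tumors. It was lowest in the same obese replicates 2 and 3, and the groups overlapped. It fell by 0.87 ± 0.32 (SE, log2 scale; edgeR adjusted p = 0.046). Ndufv2, the iron-sulfur subunit that partners Ndufv1, was at 126, 124, 121 and 134 CPM in lean and at 148, 93.5, 119, 129 and 120 CPM in obese tumors, so that the obese values lay on both sides of the lean ones. Its log2 fold change was -0.05 ± 0.14 (SE; edgeR adjusted p = 0.775). In all, 6 of 10 N-module genes were higher and 1 was lower.

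In the Q module, 5 of 6 genes were higher. Ndufs8, an iron-sulfur subunit next to Ndufs7, was at 51.5, 39.6, 42.5 and 59.8 CPM in lean and at 60.0, 123, 111, 57.8 and 73.8 CPM in obese tumors, and rose by 0.82 ± 0.24 (SE, log2; edgeR adjusted p = 0.0306). Ndufs7, whose iron-sulfur cluster passes electrons to ubiquinone, was at 40.7, 33.4, 29.2 and 50.2 CPM in lean and at 46.2, 91.0, 80.1, 45.5 and 57.0 CPM in obese tumors, with 0.74 ± 0.25 (SE, log2). Ndufs3, a core subunit without an iron-sulfur cluster, was at 21.0, 20.3, 18.6 and 26.9 CPM in lean and at 26.6, 42.4, 38.7, 24.1 and 29.1 CPM in obese tumors, with 0.57 ± 0.19 (SE, log2). In these 3 genes obese replicates 2 and 3 were again the highest and the groups overlapped.

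In the membrane arm, 9 of 10 distal and 4 of 9 proximal genes were higher and 0 were lower. Ndufb11, an accessory subunit of the distal arm, was at 14.6, 12, 11.8 and 18.7 CPM in lean and at 19.2, 37.5, 32.3, 17.8 and 24.4 CPM in obese hosts, which gave a log2 fold change of 0.88 ± 0.23 (SE; edgeR adjusted p = 0.0304). Ndufb7, a distal subunit that faces the intermembrane space, was at 41.1, 38.0, 35.3 and 50.5 CPM in lean and at 55.8, 103, 87.0, 46.2 and 63.4 CPM in obese tumors, with 0.79 ± 0.21 (SE, log2). In both genes obese replicate 4 lay below lean replicate 4 and the other obese tumors lay above every lean tumor. The groups did not overlap in 4 genes that were higher in obese hosts, Ndufa8, Ndufa3, Ndufa10 and Ndufs5, and in 1 that was lower, Ndufaf1, against background shares of 4.90% and 3.14%. All 4 higher genes belong to the proximal arm, and Ndufa10 (edgeR adjusted p = 0.0917) and Ndufs5 (0.0976) did not pass the threshold.

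Among the assembly factors, Ndufaf3 rose and Ndufaf4 fell, although their products work together in assembly of the Q module. Ndufaf4 was at 8.95, 12.4, 12.3 and 12.2 CPM in lean and at 12, 3.15, 4.14, 7.76 and 5.78 CPM in obese tumors. Obese replicates 2 and 3 were lowest, and obese replicate 1 lay within the lean range. The log2 fold change was -0.80 ± 0.29 (SE; edgeR adjusted p = 0.0439), against 0.73 ± 0.25 (SE; edgeR adjusted p = 0.0406) for Ndufaf3. With the offset for GC content and length described further on, neither gene passed. Ndufaf4 was then at -0.25 (edgeR adjusted p = 0.254) and Ndufaf3 at 0.06 (edgeR adjusted p = 0.829). Ndufaf2, a paralog of Ndufa12 that binds a late intermediate, had -0.89 ± 0.35 (SE; edgeR adjusted p = 0.0585), and Ndufaf1, a factor of the membrane-arm intermediate, had -0.60 ± 0.23 (SE; edgeR adjusted p = 0.0558). Ndufab1, whose product carries acyl chains in mitochondrial fatty acid synthesis, had -0.06 ± 0.19 (SE). Ndufa4 of complex IV was at 56.5, 60.1, 48.2 and 70.4 CPM in lean and at 70.9, 80.0, 85.0, 70.3 and 71.0 CPM in obese tumors, with 0.36 ± 0.15 (SE; edgeR adjusted p = 0.0765). Its groups overlapped by less than 1 CPM.

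The midpoint calls rested on few tumors. Without obese replicates 2 and 3, 0 of the 47 genes passed edgeR's test (7 at an unadjusted p under 0.05) and the median was 0.27. Leaving out lean replicate 2, lean replicate 3, obese replicate 2 or obese replicate 3 alone also left 0 called, and 6 were called without lean replicate 1 and 15 without obese replicate 5. The shares of all genes called in these refits are not given here. The counts are therefore not read as particular to the 47 genes. Markers of other cells moved with the comparison. Summed macrophage markers were at 146 to 358 CPM in lean and 113 to 190 CPM in obese tumors (0 higher and 4 lower of 8), and summed pan-leukocyte markers at 120 to 211 and 78.8 to 151 CPM (0 higher and 5 lower of 8). Summed fibroblast markers were at 249 to 298 CPM in lean and 85.1 to 211 CPM in obese tumors (0 higher and 1 lower of 6). The lower one was Pdgfra, at 227 to 291 CPM in lean and 67.9 to 195 CPM in obese tumors, without overlap. Pdgfra made up most of the fibroblast sum in every library on both days. Of the 6 fibroblast markers, 3 had a log2 fold change above 0 and 3 below 0. Arhgap30, at 75.5 to 127 CPM in lean and 23.6 to 121 CPM in obese tumors, was the largest pan-leukocyte marker. That held in all libraries of both days except obese midpoint replicate 3. In the fit of all 18 libraries, 29.5% of all genes tested were called. Of the 2 mammary carcinoma and epithelial markers tested, 1 was higher and 0 lower, and both had a log2 fold change above 0. Krt8 was at 21.8 to 38.8 CPM in lean and 34.5 to 64.8 CPM in obese tumors, with overlap. Of the adipocyte markers, Plin1 was at 0.774 to 2.25 CPM in obese and at most 0.189 CPM in lean tumors, whereas Adipoq and Lep were at or near 0. The part of these cells in the result was not tested.

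**Figure D2:**
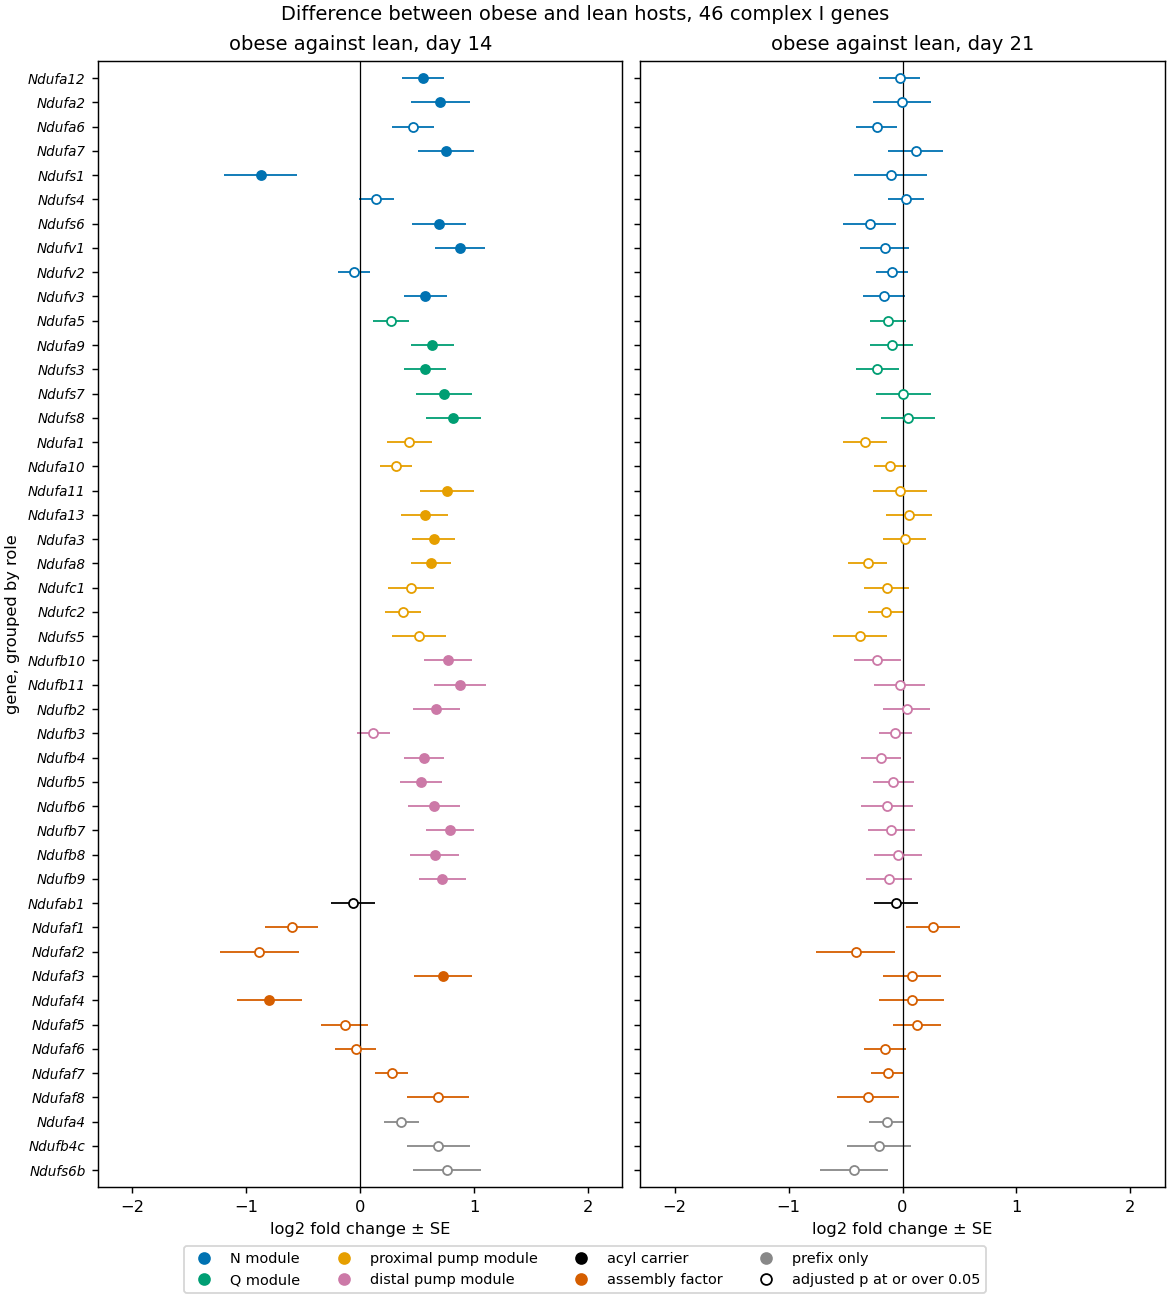
Log2 fold change of obese against lean hosts (x axis, ± SE) for 46 of the 47 genes (y axis, coloured by role) at day 14 and day 21, with filled points for an edgeR adjusted p under 0.05. At day 14, 24 filled points lie above 0 and 2 below it, and at day 21 none is filled.

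At endpoint no difference between obese and lean hosts was detected in any of the 47 genes. By edgeR's test 0 passed the threshold, against a background of 0.00612% (1 gene) of those tested, and DESeq2 and limma-voom also called 0. At an unadjusted edgeR p under 0.05 there were 0 of the 47 genes, against 800 of the 16352 genes tested. The median log2 fold change was -0.11, against -0.005 over all genes tested, and 36 of the 47 values lay below 0. The range was -0.43 (Ndufs6b) to 0.27 (Ndufaf1).

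The values at endpoint lay close together. Ndufa8 had the lowest p, with 106, 104, 95.2 and 87.5 CPM in lean and 79.6, 90.5, 87.2, 70.7 and 69.1 CPM in obese tumors. Obese replicate 2 lay above the lowest lean tumor, and the log2 fold change was -0.31 ± 0.18 (SE; edgeR adjusted p = 0.997). Ndufs5, a proximal arm subunit, was at 9.74, 4.22, 4.42 and 5.02 CPM in lean and at 5.30, 5.52, 4.25, 4.14 and 3.34 CPM in obese tumors. Lean replicate 1 alone stood apart from the rest. Ndufa1, a small subunit of the proximal arm, was at 31.6, 19.3, 19 and 21.1 CPM in lean and at 19.5, 20.4, 18.2, 16.6 and 15.8 CPM in obese tumors, with the same lean replicate 1 highest. That library had a TMM factor of 0.606, against 0.949 to 1.06 in the other lean endpoint libraries. A lower factor raises the scaled CPM of every gene of a library. The part of this factor in the high values of lean endpoint replicate 1, here and below, was not tested. The pseudogene Ndufs6b was at 2.96, 1.75, 1.57 and 2.17 CPM in lean and at 1.29, 2.27, 1.37, 1.51 and 1.39 CPM in obese tumors, which overlapped. The groups did not overlap in 1 gene that was lower in obese hosts, Ndufaf2, and in 0 that were higher, against background shares of 1.33% and 0.636%.

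Markers of other cells were spread widely within the endpoint groups. Summed macrophage markers were at 176 to 324 CPM in lean and 99.9 to 510.4 CPM in obese tumors, summed pan-leukocyte markers at 146 to 207 and 125 to 247 CPM, and summed fibroblast markers at 381 to 519 and 327 to 442.5 CPM. By edgeR's test 0 of these 22 markers passed between hosts at endpoint, with 1, 0 and 3 at an unadjusted p under 0.05, and 0 passed for the interaction described next, with 4, 5 and 1.

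The change of the diet difference between the days was tested as an interaction. Its median over the 47 genes was -0.69 on the log2 scale, against 0.005 over all genes tested, and 41 of 47 values lay below 0. However, 0 passed edgeR's threshold, against a background of 0%. At an unadjusted edgeR p under 0.05 there were 32 of the 47 genes, against 5451 of the 16352 genes tested. The smallest edgeR adjusted p was 0.0983, shared by genes that included Ndufa8 at -0.93 ± 0.25 (SE), Ndufv1 at -1.03 ± 0.31 (SE) and Ndufb10, a distal arm subunit, at -0.995 ± 0.295 (SE). Ndufb10 was at 60.8, 55.8, 51.9 and 88.8 CPM in lean and at 79.9, 150, 137, 80.3 and 102 CPM in obese tumors at midpoint, and at 46.4, 61.8, 45.1 and 48.7 CPM in lean and at 45.6, 47.2, 46.6, 42.3 and 34.7 CPM in obese tumors at endpoint. Its obese tumors were high at midpoint only, and the groups overlapped on both days. DESeq2 called 6 genes (1 above and 5 below 0), and edgeR called 26 (3 above and 23 below 0) without obese midpoint replicate 1, so with all 18 libraries edgeR did not show that the diet difference changed between the days. The background of 0% is that of edgeR with all 18 libraries. The shares of all genes called in the other fits are not given here, so their counts are not read as particular to the 47 genes.

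Endpoint was next compared with midpoint within each kind of host. In lean hosts, 2 of the 47 genes rose and 8 fell, and 37 did not pass edgeR's threshold, against a background of 30.9% called (21.4% higher and 9.50% lower). The median log2 fold change was -0.38, against 0.04 over all genes tested. The genes that fell were 4 of the proximal arm (Ndufa3, Ndufa10, Ndufa11 and Ndufa13), Ndufa9 and Ndufs8 of the Q module, Ndufv3 of the N module and Ndufb8 of the distal arm. Those that rose were Ndufab1 and Ndufaf4. With an offset for GC content and length, described further on, the calls of Ndufa9 and Ndufb8 were kept and the other 8 were lost. Markers of other cells moved between the days as well, with 3 fibroblast markers higher and 2 lower of 6 (Pdgfra, Lum and Dcn higher, Col1a1 and Col1a2 lower), 1 of 8 macrophage markers higher and 0 lower, 2 of 8 pan-leukocyte markers lower and 0 higher, and 2 of 6 T and NK cell markers lower and 0 higher. Their summed levels in the lean groups are those given above, except for T and NK cell markers, which were low at 2.11 to 3.28 CPM at midpoint and 0.726 to 1.85 CPM at endpoint. The part of these cells in the result was not tested.

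Ndufa13, also known as the cell death regulator GRIM-19, was at 131, 129, 111 and 165 CPM in lean tumors at midpoint and at 71.2, 101, 60.1 and 84.7 CPM at endpoint. All endpoint tumors lay below all midpoint tumors, and the log2 fold change was -0.76 ± 0.22 (SE; edgeR adjusted p = 0.0126). Ndufa3, a small membrane subunit, was at 56.6, 46.9, 48.2 and 55.9 CPM and then at 29.4, 39.9, 24.4 and 33.2 CPM, again without overlap, with -0.71 ± 0.20 (SE). Ndufa9, which holds a bound NADPH at the joint of the arms, was at 102, 95.0, 80.4 and 125 CPM and then at 58.7, 75.1, 55.4 and 61.7 CPM, with -0.68 ± 0.20 (SE). Ndufs8 fell from the midpoint values given above to 21.5, 35.5, 21.9 and 31.5 CPM, with -0.81 ± 0.25 (SE; edgeR adjusted p = 0.0206). In each of these genes lean endpoint replicate 2 was the highest of its group. Over all 47 genes the groups did not overlap in 17 that were lower and 3 that were higher at endpoint, against background shares of 13.2% and 19.9%.

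Ndufab1 was at 6.74, 6.39, 5.70 and 6.27 CPM in lean tumors at midpoint and at 16.6, 7.69, 9.26 and 12 CPM at endpoint. Every endpoint tumor lay above every midpoint tumor, with lean replicate 1 highest, and the log2 fold change was 0.86 ± 0.21 (SE; edgeR adjusted p = 0.00427). Ndufaf4 was at 25.2, 15, 24.1 and 26.3 CPM at endpoint, all above its midpoint values of 8.95 to 12.4 CPM, with 0.98 ± 0.30 (SE; edgeR adjusted p = 0.0203). The count of genes called in lean hosts moved with the tumors in the fit. It was 3 without endpoint replicate 3, 4 without midpoint replicate 4 and 6 without endpoint replicate 5. It was 19 without lean midpoint replicate 3 and 21 without lean endpoint replicate 2. It was 18, 24 and 21 without obese midpoint replicates 1, 2 and 3, which are in the fit but not in the comparison. No share of all genes called is given here for these refits, so their counts are not read as particular to the complex I genes.

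In obese hosts, 39 of the 47 genes were lower at endpoint by edgeR's test, 5 were higher and 3 did not pass, against a background of 73.9% called (37.8% higher and 36.1% lower). The median log2 fold change was -1.14, against -0.001 over all genes tested. The difference between this change and that in lean hosts is the interaction tested above, for which 0 of the 47 passed. All 6 Q-module genes, all 9 proximal and all 10 distal genes fell, as did 8 of 10 N-module genes, 3 of 8 assembly factors and the 3 genes with the prefix alone. Those that rose were the assembly factors Ndufaf4, Ndufaf2 and Ndufaf1, the N-module core subunit Ndufs1, and Ndufab1. Ndufv2, Ndufaf5, a hydroxylase that modifies Ndufs7, and Ndufaf6 did not pass.

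Markers of other cells moved between the days in obese hosts too, where 73.9% of all genes tested were called. Of the fibroblast markers, 4 of 6 were higher and 2 lower at endpoint, and their sum was at 85.1 to 211 CPM at midpoint and at 327 to 442.5 CPM at endpoint. Dcn was at 0.232 to 1.64 CPM and then at 12.9 to 49.6 CPM. Lum was at 0 to 0.511 CPM and then at 2.98 to 17.5 CPM. Pdgfra, which made up most of the sum, was at 67.9 to 195 CPM and then at 306 to 385 CPM. The 2 lower ones were Col1a1, at 7.3 to 16.9 CPM and then at 1.63 to 4.02 CPM, and Col1a2. Col1a2 was at 4.82 to 8.19 CPM and then at 1.77 to 4.48 CPM. In each of these 5 markers the days did not overlap. Of the pan-leukocyte markers 5 of 8 were higher and 1 lower, with sums of 78.8 to 151 and 125 to 247 CPM, and of the macrophage markers 2 of 8 were higher and 0 lower, with sums of 113 to 190 and 99.9 to 510.4 CPM. Of the T and NK cell markers 5 of 6 were lower and 0 higher, with low sums of 1.71 to 7.75 and 0.683 to 1.31 CPM, and Krt8 was lower as well. The part of these cells in the result was not tested.

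Ndufa9 had the lowest p of the 47 genes. It was at 122, 209, 196, 116 and 137 CPM in obese tumors at midpoint and at 59.9, 63.5, 60.8, 60.9 and 48.5 CPM at endpoint. The groups were far apart, and the log2 fold change was -1.41 ± 0.18 (SE, 5 tumors on each day; edgeR adjusted p = 2.12e-06). Ndufv3, an accessory subunit of the N module, was at 87.6, 146, 131, 84.8 and 104 CPM and then at 43.2, 54.0, 40.6, 45.8 and 33.3 CPM, with -1.35 ± 0.18 (SE). Ndufa8 was at 148, 246, 240, 152 and 160 CPM at midpoint, above all of its endpoint values given above, with -1.25 ± 0.17 (SE). Ndufa3 was at 61.5, 113, 94.6, 63.3 and 72.7 CPM and then at 32.3, 36.9, 33.6, 31.5 and 26.6 CPM, with -1.33 ± 0.18 (SE). In these genes, too, the days did not overlap.

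Among the core subunits, Ndufs8 fell by 1.58 ± 0.23 (SE, log2) to 28.0, 34.7, 31.6, 25.7 and 22.5 CPM in obese endpoint tumors. Ndufv1 fell by 1.53 ± 0.21 (SE, log2) to 50.7, 58.1, 54.9, 52.7 and 40.5 CPM, and was at 53.4, 66.1, 55.3 and 54.4 CPM in lean endpoint tumors. Obese replicate 5 was the lowest in both genes, and the days did not overlap in either of them. Ndufs7 fell by 1.23 ± 0.23 (SE, log2) to 25.5, 31.3, 29.5, 29.4 and 20.5 CPM, and was at 16.7, 34.2, 30.7 and 26.9 CPM in lean endpoint tumors. Ndufs3 fell by 1.14 ± 0.18 (SE, log2) to 17.5, 15, 15.6, 13.6 and 11.3 CPM, and was at 16.1, 18, 17.7 and 16.2 CPM in lean endpoint tumors. Ndufv2 was at 106, 110, 113, 103 and 89.9 CPM in obese and at 119, 117, 103 and 108 CPM in lean endpoint tumors, with obese replicate 5 alone below all of its midpoint values, and had -0.22 ± 0.13 (SE; edgeR adjusted p = 0.134) in obese hosts. Ndufa4 was at 39.4, 42.0, 43.4, 45.1 and 33.6 CPM in obese and at 41.6, 54.3, 45.2 and 38.3 CPM in lean endpoint tumors, and fell by 0.89 ± 0.15 (SE, log2) in obese hosts.

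Ndufaf4 had the largest increase of the 47 genes, to 25.5, 18.7, 22.2, 25.6 and 27.6 CPM in obese endpoint tumors. All lay above its obese midpoint values, of which the highest was 12 CPM in replicate 1, and the log2 fold change was 1.86 ± 0.28 (SE; edgeR adjusted p = 9.36e-06). Ndufaf2 was at 14.4, 3.43, 2.90, 7.11 and 5.15 CPM in obese tumors at midpoint and at 17.8, 18, 18.3, 17.4 and 17.4 CPM at endpoint, with 1.42 ± 0.34 (SE; edgeR adjusted p = 0.000816). The wide spread at midpoint was not seen at endpoint, where its 5 obese tumors lay within 1 CPM of each other. Ndufs1 was at 97.5, 101, 105, 105 and 102 CPM in obese and at 140, 96.9, 98.9 and 103 CPM in lean endpoint tumors. It rose by 0.96 ± 0.30 (SE, log2) in obese hosts without overlap between the days, and lean replicate 1 was its highest tumor.

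Ndufaf1 was at 10.5, 4.70, 4.24, 10.03 and 8.43 CPM in obese tumors at midpoint and at 11.8, 12.2, 13.6, 12.1 and 9.94 CPM at endpoint, with 0.65 ± 0.22 (SE; edgeR adjusted p = 0.013). The days overlapped at obese endpoint replicate 5. Ndufab1 was at 7.13, 5.93, 6.29, 5.61 and 5.06 CPM at midpoint and at 10.4, 9.80, 11, 10.8 and 12.6 CPM at endpoint, with 0.86 ± 0.18 (SE; edgeR adjusted p = 0.000333), close to its change in lean hosts. Over the 47 genes, the days did not overlap in 38 that were lower and 4 that were higher, against background shares of 28.9% and 31.3%. All 8 genes that fell in lean hosts also fell in obese hosts, as 20.5% of the longer list, and both genes that rose in lean hosts were among the 5 (40%) that rose in obese hosts.

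**Figure D3:**
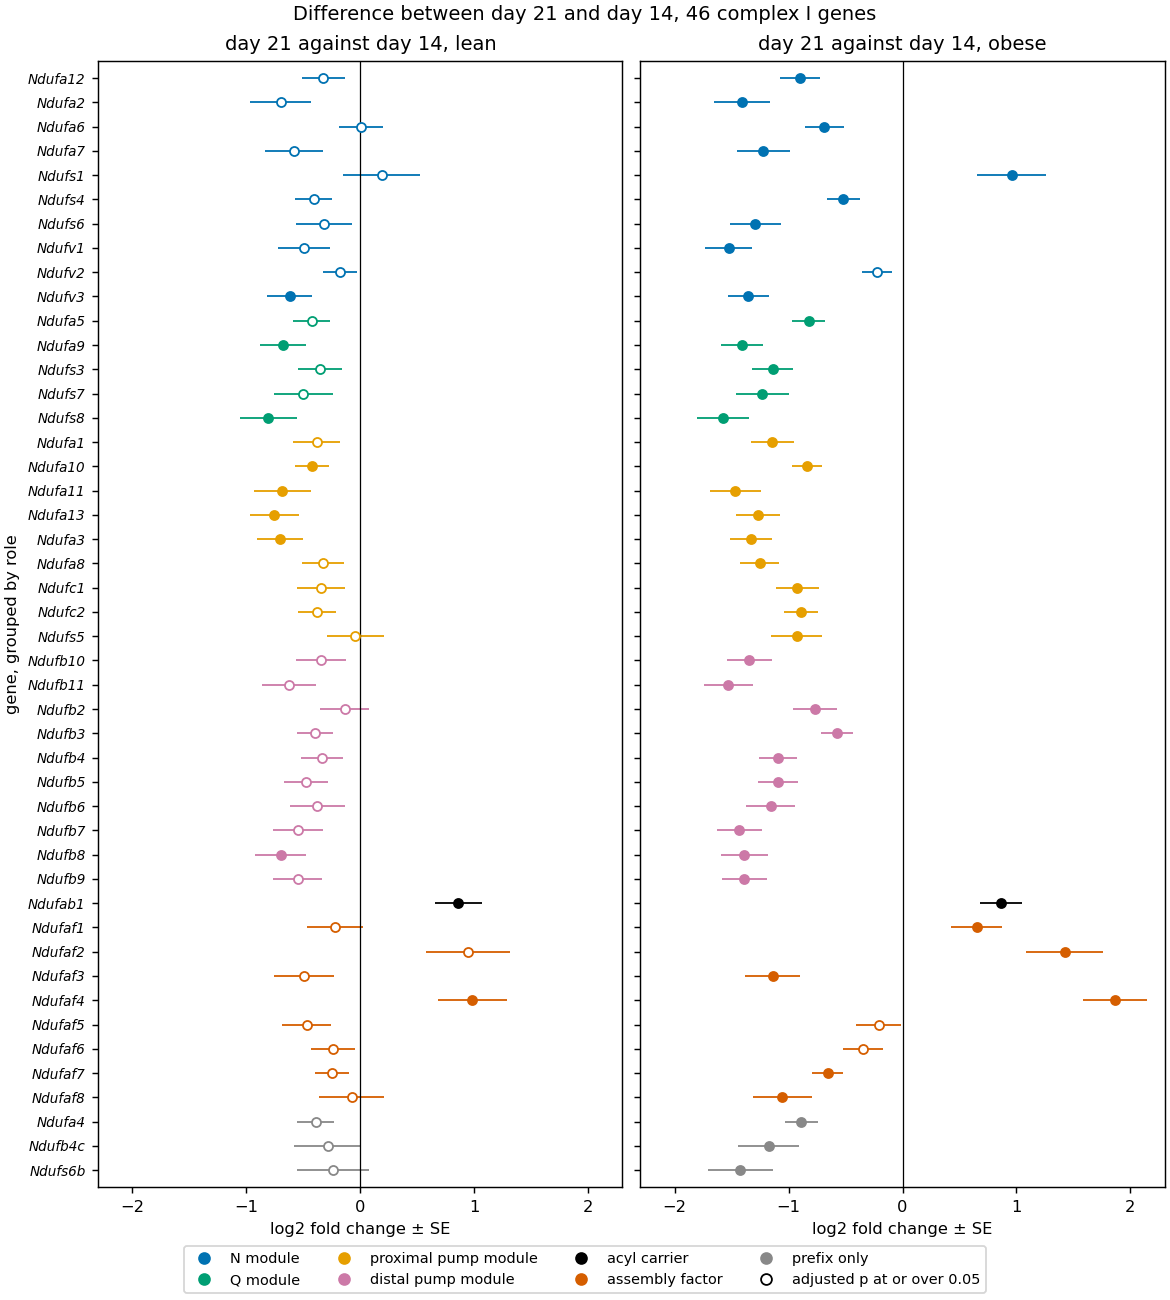
Log2 fold change of day 21 against day 14 (x axis, ± SE) for 46 of the 47 genes (y axis, coloured by role) in lean and obese hosts, with filled points for an edgeR adjusted p under 0.05. In obese hosts 38 filled points lie below 0 and 5 above it, and in lean hosts 8 lie below and 2 above.

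The genes moved largely as a block across the 18 libraries, apart from a few that moved the other way. As a description over 18 libraries that share their groups and their scaling, Ndufa9 had a Pearson r of 0.991 with the mean log2 CPM of the other members and Ndufb9 one of 0.989. Ndufaf4 had the most opposite pattern at -0.944, followed by Ndufaf2 (-0.875), Ndufs1 (-0.801), Ndufab1 (-0.77) and Ndufaf1 (-0.67). Ndufv2 (0.395), Ndufaf5 (0.394) and Ndufaf6 (0.405) lay between. Of all other genes, those whose log2 CPM followed the mean of the 47 most closely were Sdhb, an iron-sulfur subunit of complex II, at r = 0.993, the tubulin cofactor Tbcb (0.992), the phosphatase regulator Ppp1r8 (0.992), the proteasome subunit Psmb1 (0.991) and the opioid growth factor receptor Ogfr (0.991).

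These patterns ran beside a dependence of log2 CPM on the GC content of transcripts, which differed between libraries. The change in log2 CPM for each 10 points of GC, fitted over all genes, was 0.258 ± 0.171 (SD, n = 4) for lean midpoint tumors and 0.946 ± 0.464 (SD, n = 5) for obese midpoint tumors. At endpoint this slope was -0.563 ± 0.348 (SD, n = 4) for lean hosts and -0.703 ± 0.183 (SD, n = 5) for obese hosts. The steepest slopes, 1.52 and 1.21, were those of obese midpoint replicates 2 and 3, the tumors that stood apart above. The median GC content of the 47 genes was 50.3%, near the 49.9% of all genes tested. Across the 47 genes, Pearson's r of the log2 fold change with GC content was 0.60 for the midpoint comparison of hosts, -0.43 for the days in lean hosts and -0.58 for the days in obese hosts, against 0.60, -0.57 and -0.69 across 16122 genes, as a description, since genes of a library share it. The genes that went against the rest had 39.5% (Ndufaf4), 45.1% (Ndufs1), 45.3% (Ndufab1), 46.3% (Ndufaf1) and 48.8% (Ndufaf2) GC. Other genes in this range of GC were lower at endpoint in obese hosts, among them Ndufa4 (40.3%), Ndufs4 (43.1%), Ndufb2 (43.7%), Ndufc1 (44.1%), Ndufaf7 (44.6%) and Ndufb3 (45.0%). Also in this range, Ndufv2 (42.0%; edgeR adjusted p = 0.134) and Ndufaf5 (44.5%; 0.337) did not pass there.

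**Figure D4:**
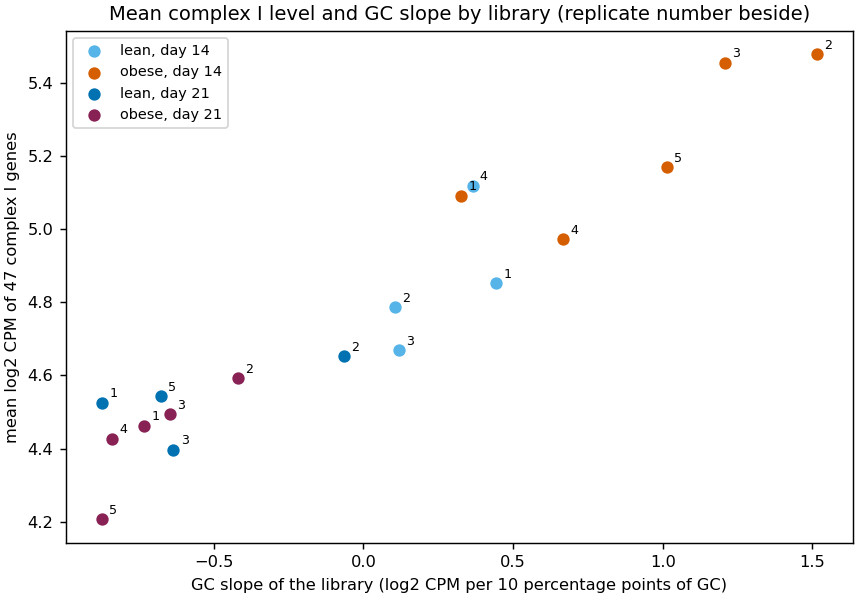
Mean log2 CPM of the 47 genes (y axis) against the GC slope of the library (x axis, change in log2 CPM for each 10 points of GC), 1 point per tumor with its replicate number. Obese midpoint replicates 2 and 3 have the steepest slopes and the highest means (5.48 and 5.46), and all endpoint tumors have slopes below 0 and means of 4.65 or less.

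With an offset per library for GC content and length, calls and directions changed for many of the genes. At midpoint 8 genes were higher in obese hosts and 0 lower (background 7.23%), and 4 of the 27 earlier calls were kept. The median was 0.32, against -0.044 over all genes. The largest value was that of Ndufb2 of the distal arm, at 1.37 ± 0.31 (SE; edgeR adjusted p = 0.0376), while Ndufv1 was at 0.27 ± 0.12 (SE; 0.134) and Ndufs1 at -0.47 ± 0.23 (SE; 0.169). In lean hosts the days differed in 12 genes (3 higher and 9 lower, background 25.1%), of which 2 were among the earlier 10, and Ndufaf4 was at -0.02 ± 0.15 (SE). Ndufab1 was at 0.24 (edgeR adjusted p = 0.376), Ndufa13 at -0.09 (0.65), Ndufa3 at -0.28 (0.102) and Ndufs8 at -0.21 (0.274), and none of these 4 was called with the offset. The offset moved the median of all genes there by 0.143, and the median of the 47 genes was 0.336 below it.

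In obese hosts the offset left 28 of the 47 genes called between the days (3 higher and 25 lower, background 55.6%), with 24 of the earlier 44 kept. The offset moved the median of all genes by 0.27 to 0.272, and the median of the 47 genes, -0.38, was then 0.65 below it. Ndufb2 at -2.33 ± 0.30 (SE), Ndufa4 at -2.32 ± 0.22 (SE) and Ndufv2 at -1.54 ± 0.15 (SE; edgeR adjusted p = 4.58e-07) were among those that fell, and Ndufv2 had not passed without the offset. Ndufaf4 was at 0.10 ± 0.13 (SE; edgeR adjusted p = 0.564), Ndufs1 at 0.14 ± 0.21 (SE; 0.602) and Ndufaf2 at 1.62 ± 0.32 (SE; 0.000298). Ndufs7 was called higher, at 0.30 ± 0.12 (SE; 0.0434), and Ndufa6 of the N module likewise, at 0.48 (0.00307), although both were lower without the offset. Of the 5 genes that rose without the offset in obese hosts, Ndufaf2 alone was still called higher. With the offset, Pearson's r of the log2 fold change with GC content across the 47 genes was -0.35 for the hosts at midpoint and 0.60 for the days in obese hosts, opposite in sign to the values without it.

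**Figure D5:**
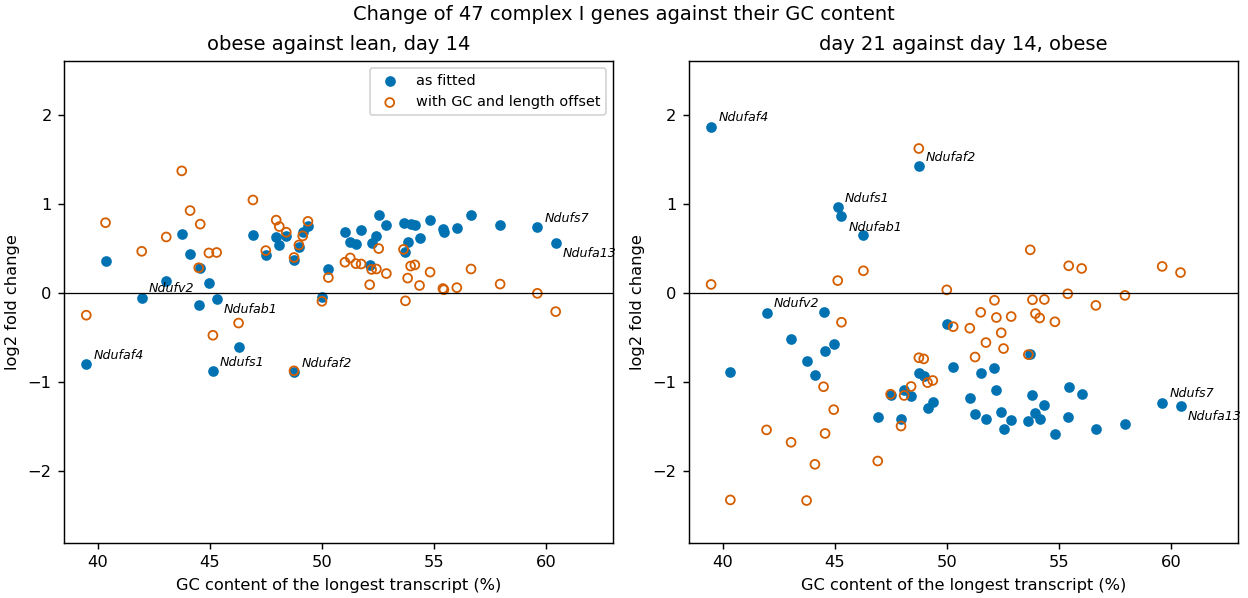
Log2 fold change (y axis) of the 47 genes against GC content of the longest transcript (x axis, percent), for obese against lean hosts at day 14 and for day 21 against day 14 in obese hosts, as fitted (filled) and with the GC and length offset (open). Without the offset Ndufaf4 lies at -0.80 and 1.86, and with it at -0.25 and 0.10.

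Other genes of the respiratory chain, its assembly and its regulators were read from lists. Their fold changes here and below are without the offset for GC content and length. Of 37 nuclear genes of complexes II to V, 24 were higher and 0 lower in obese hosts at midpoint by edgeR's test, with a median of 0.58, including Uqcrc1 of complex III at 0.90 ± 0.23 (SE) and Cox5b of complex IV at 0.77 ± 0.21 (SE). At endpoint 0 differed between hosts (edgeR; 0 also at an unadjusted p under 0.05). Between the days, 0 rose and 13 fell in lean hosts, and 1 rose and 32 fell in obese hosts (median -1.10), with the ATP synthase genes Atp5k at -1.42 ± 0.19 (SE) and Atp5a1 at -1.20 ± 0.16 (SE) in obese hosts. These counts are close to those of the complex I genes, and no test of the difference was made. Over all genes tested, 16.7% were higher and 12.8% lower in obese hosts at midpoint. Between the days, 21.4% were higher and 9.50% lower in lean hosts, and 37.8% higher and 36.1% lower in obese hosts.

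The mitochondrial genome encodes 7 membrane-arm core subunits of complex I. In lean hosts 3 of them were higher at endpoint, mt-Nd6 at 1.82 ± 0.57 (SE; edgeR adjusted p = 0.0205), mt-Nd2 at 0.95 ± 0.32 (SE) and mt-Nd5 at 0.88 ± 0.30 (SE), and 0 were lower. In obese hosts 0 were higher and 1 was lower, mt-Nd1 at -0.65 ± 0.27 (SE; edgeR adjusted p = 0.0344). At midpoint 0 differed between hosts (1 at an unadjusted p under 0.05), and at endpoint 0 differed (3 at an unadjusted p under 0.05). The background shares called were 30.9% between the days in lean hosts, 73.9% in obese hosts and 29.5% between hosts at midpoint. Lean endpoint replicate 1 had the highest summed level of these 7 genes, at 22740 CPM, against 6594 CPM in the lowest tumor of its group.

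Of 11 assembly factors without the Nduf prefix, 2 were higher and 2 lower in obese hosts at midpoint. Ecsit, a partner of Ndufaf1 in the membrane-arm intermediate, was higher at 0.67 ± 0.18 (SE), whereas Tmem126b, of the same intermediate, was lower at -1.19 ± 0.36 (SE), as was Tmem70 at -1.41 ± 0.44 (SE). Between the days in obese hosts, Tmem70 at 2.11 ± 0.43 (SE) and Tmem126b at 1.76 ± 0.35 (SE) rose and 4 fell, with Ecsit at -1.21 ± 0.17 (SE). In lean hosts 0 rose and 2 fell, Timmdc1 at -0.64 ± 0.17 (SE) and Ecsit at -0.70 ± 0.19 (SE). These counts stand against background shares of 29.5% at midpoint, 73.9% between the days in obese hosts and 30.9% in lean hosts, and nothing is read from them about assembly factors as a group.

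Of 13 regulators of mitochondrial genes, 4 were higher and 5 lower in obese hosts at midpoint, with the mitochondrial RNA polymerase Polrmt at 0.93 ± 0.25 (SE) and the transcription factor Yy1 at -1.03 ± 0.30 (SE). Between the days, 4 rose and 0 fell in lean hosts, and 6 rose and 5 fell in obese hosts. The background shares called were 29.5% at midpoint, 30.9% between the days in lean hosts and 73.9% in obese hosts. Nothing is read from these counts about the regulators as a group. Gabpa and Gabpb2, subunits of nuclear respiratory factor 2, rose by 2.12 ± 0.34 (SE) and 2.12 ± 0.30 (SE) on the log2 scale in lean hosts and by 3.13 ± 0.31 (SE) and 2.76 ± 0.28 (SE) in obese hosts. These values, too, are without the offset, and the part of GC content in them was not tested. Nrf1 itself was at -0.62 ± 0.14 (SE; edgeR adjusted p = 0.000578) between the days in obese hosts. At endpoint 0 of the 13 differed between hosts (edgeR; 0 at an unadjusted p under 0.05).

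In mm10 coordinates of the deposited table, the members with the most opposite patterns are protein-coding genes on different chromosomes. Ndufa9 (ENSMUSG00000000399) lies at chr6:126821863-126849144 and Ndufv1 (ENSMUSG00000037916) at chr19:4007497-4012806. Ndufs1 (ENSMUSG00000025968) lies at chr1:63143596-63176822, Ndufaf4 (ENSMUSG00000028261) at chr4:24898083-24905001 and Ndufab1 (ENSMUSG00000030869) at chr7:122085403-122101886. The 47 genes lie on 17 chromosomes.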

How the data were processed

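The table the authors deposited holds raw whole-number counts of 39017 genes in 19 libraries. TopHat, DESeq and mm10 are named in the submitters' processing notes, without versions or roles, and no source used here gives the counting tool, strand setting or filters. Ensembl identifiers and positions are those of the table, per the file headers. Symbols and the GC content of the longest transcript came from GENCODE M21 by identifier (37607 genes matched). The gene lengths used per kb and in the offset are those of the deposited table.

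The genes, lists and tests were chosen with earlier results of these data known. Lean endpoint replicate 4 was left out. Counts of the other 18 libraries were fitted with edgeR 4.0.16 under R 4.3.3: filterByExpr left 16352 genes, libraries were scaled by TMM, a mean per group was fitted, and 5 contrasts were tested by quasi-likelihood with Benjamini-Hochberg adjustment over all genes at 0.05. CPM were computed here from the deposited counts, with a prior count of 2 for log2 CPM. Each SE is the size of the fold change over the square root of F. The test was first tried on simulated data. The GC offset used natural splines with 5 degrees of freedom each for GC content and log2 length.

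Genes were described in every library if they were core subunits, had 1 of the 4 smallest p in a contrast, went against most called members, or were Ndufa4 or Ndufa4l2. The values of 1 member are not reported here, and counts and medians include it. Alternatives were RLE scaling, no filter, DESeq2 1.42.0, limma-voom (limma 3.58.1), a block for the replicate number, the GC and length offset, a fit of each pair of groups alone, a minimum of 5 CPM for members, each library left out, and chromosomes 1 to 4 with all 19 libraries. Fits without mitochondrial and structural RNA genes, without pseudogenes and without 2 obese midpoint libraries were chosen after the data were seen. Of 32 pairs of libraries within groups, the lowest chi-square per degree of freedom was 35.7, so none was a repeat.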

Additional observations from a re-analysis of the deposited data

Results flagged for a closer look

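Of 96 sets of 4 or 5 tumors looked at for 1 tumor standing apart on the log2 scale, 7 held such a tumor, and chance gives about 1 in 20. In lean midpoint tumors, Ndufaf4 was lowest in replicate 1, at 8.95 CPM. In lean endpoint tumors, Ndufaf1 was lowest in replicate 3, at 7.51 CPM, and Ndufaf4 was lowest in replicate 2, at 15 CPM. In the same group Ndufs1 was highest in replicate 1, at 140 CPM, and Ndufv1 was highest in replicate 2, at 66.1 CPM. Replicate 1 of this group had the low TMM factor of 0.606, which raises its scaled CPM, and the part of this factor was not tested. In obese endpoint tumors, Ndufa9 was lowest in replicate 5, at 48.5 CPM, and the pseudogene Ndufs6b was highest in replicate 2, at 2.27 CPM.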

How the results depend on the processing

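Between obese and lean hosts at midpoint, the 27 genes called became 11 (8 higher, 3 lower) with no filter on low counts, 0 with the compared groups alone, 8 with the GC and length offset (median 0.315), 0 without obese midpoint replicates 2 and 3 together (median 0.269), and 0 to 33 when 1 library was left out. At endpoint the count stayed at 0 in all of these fits. For the interaction, DESeq2 called 6 and leaving out 1 library gave 0 to 26. The median of the interaction was -0.384 with the offset and -0.314 without the 2 obese libraries. Apart from the offset at midpoint, no share of all genes called is given for these alternative fits. Their counts are therefore not read as particular to the complex I genes.

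Between the days in lean hosts, the 10 genes called became 17 with RLE scaling, 21 with DESeq2, 19 with the compared groups alone, 32 (3 higher, 29 lower) without the 2 obese midpoint libraries, and 3 to 24 when 1 library was left out. The offset gave 12 and a median of -0.157. In obese hosts, the 44 genes called became 28 with the offset (median -0.378), and the median was -0.803 without the 2 obese midpoint libraries, where 45 were called. With the 14 members on chromosomes 1 to 4, 7, 5 and 13 were called with all 19 libraries for the midpoint hosts, the lean days and the obese days, and 7, 4 and 13 with 18. The cause of these differences was not tested, other than that chromosomes 1 to 4 hold fewer members. Apart from the offset, no share of all genes called is given for these alternative fits. Their counts are therefore not read as particular to the members.

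The offset turned the sign of 2 of the 27 calls between hosts at midpoint (Ndufs7 and Ndufa13), of 2 of the 10 between the days in lean hosts (Ndufaf4 and Ndufa10) and of 6 of the 44 in obese hosts (Ndufs7, Ndufab1, Ndufa6, Ndufa13, Ndufaf3 and Ndufaf8). Ndufs7 was at -0.004 between hosts at midpoint and at 0.298 between the days in obese hosts, Ndufaf4 at -0.024 and Ndufa10 at 0.007 between the days in lean hosts, and Ndufab1 at -0.328 between the days in obese hosts. Ndufa13 was at -0.209 between hosts at midpoint, and in obese hosts Ndufa6 was at 0.484, Ndufa13 at 0.229, Ndufaf3 at 0.275 and Ndufaf8 at 0.305. Without mitochondrial and structural RNA genes, the median of all genes between the days in obese hosts moved by 0.124, and that of the members was 1.14 below it.

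Deviations of same-numbered libraries had a median r of -0.039 over 24 pairs (-0.403 to 0.551). For libraries with different numbers the median r was 0.013 over 97 pairs (-0.498 to 0.371). The pairs share libraries, so these values cannot decide whether the numbers pair the tumors. With the replicate number as a block, 22, 0, 0, 7 and 44 genes were called for the hosts at midpoint, the hosts at endpoint, the interaction, the lean days and the obese days. No share of all genes called is given for the fit with this block, so its counts are not read as particular to the members. Depth limits the precision of the lowest members, down to a mean of 1.62 CPM.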
